A study of Mus musculus with 6 samples.

Results

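The interferon response and antigen presentation genes considered here are 37 genes in 3 role groups: 16 interferon-stimulated genes and their regulators, 7 interferon-inducible GTPases, and 14 genes of antigen processing and the major histocompatibility complex (MHC). The members are all probe sets whose platform annotation gives exactly 1 symbol from that list, which were 54 of the 45101 probe sets and covered 34 of the 37 genes. Isg15 and Psme2 were annotated only on probe sets that also carry another symbol, so both stayed out, and Ifi44 was not analysed here. A filter on dim probe sets kept 46 of the 54 probe sets and 32 of the 34 genes for testing. Those below it were the single probe set of Ifit2, all 3 of Ciita, 3 of Tap1 and 1 of H2-Aa.

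The livers came from male BALB/c mice aged 10 weeks, hybridised to 1 Affymetrix array per sample, with 3 control samples and 3 from mice kept alone for 30 days. Mice of both groups arrived at 4 weeks of age, lived 5 to a cage and acclimatised for 10 days. The isolated mice then lived 1 to a cage, with much less bedding than the controls, and cages stood in a foam plastic box that cut social contact; how many control mice shared a cage afterwards is not given in the sources used here. The labels do not say that the samples of a group came from separate mice, so p-values measure only the spread between these samples, which may be technical.

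Interferons are secreted proteins that bind receptors on the cell surface and act through JAK kinases, STAT proteins and IRF factors. Type I interferon signalling acts mainly on the interferon-stimulated response element (ISRE), which a complex holding STAT2 and IRF9 binds, while interferon gamma acts mainly on the gamma-activated site (GAS). The genes switched on include antiviral effectors such as Ifit1 and Oas1a, the immunity-related GTPases that attack the vacuoles of intracellular pathogens, and the machinery that cuts proteins into peptides and displays them on MHC molecules. In liver, hepatocytes respond to both kinds of interferon, whereas MHC class II is mostly a product of resident immune cells.

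Of the 46 tested probe sets 1 was called higher in isolated mice and 0 lower, where a call means a limma p under 0.05 once adjusted by Benjamini-Hochberg across the whole set of tested probe sets. Among all tested probe sets 0.773% were called higher and 0.857% lower, or 1.63% in either direction. The call was Igtp, an immunity-related GTPase, and 5 member probe sets had an unadjusted limma p under 0.05, against 11.4% of all tested probe sets. In all, 25 of the 46 had a log2 change above 0, against 55.4%. Per gene, taking the tested probe set with the highest mean, 1 of 32 was called higher and 0 lower, against 0.901% and 0.847% of all tested genes, 1.75% in all. By that measure 21 of 32 member genes had a log2 change above 0, or 65.6%, against 58.4% of all tested genes. The median log2 change was 0.19 over the member genes and 0.05 over all tested genes, and it was -0.01 over both without isolated replicate 3. Values are MAS5 signals, a linear intensity per probe set, and changes are on the log2(signal + 2) scale, isolated minus control, which understates those of dim probe sets. In whole liver, fewer cells of a type and less RNA per cell cannot be told apart.

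**Figure D1:**
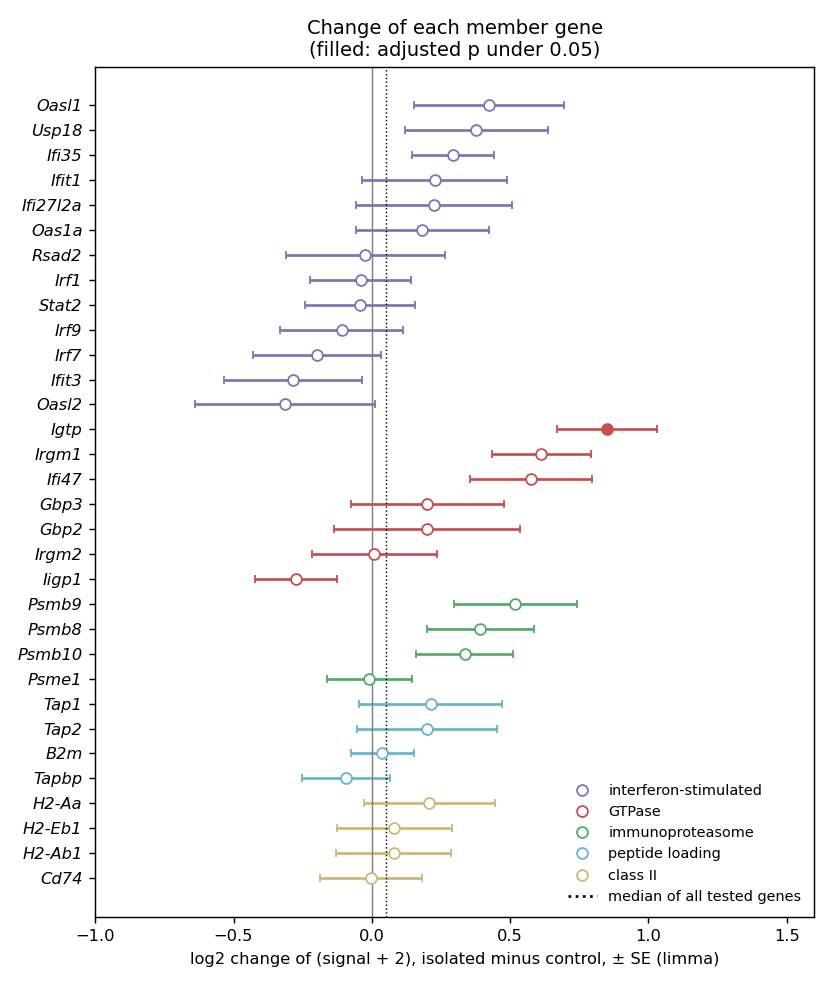
Log2 change of (signal + 2), isolated minus control, with its limma SE, for the 32 tested member genes grouped by role; a filled point marks an adjusted p under 0.05 and the dotted line marks 0.05, the median of all tested genes. Igtp, at 0.85, is the 1 filled point, and Irgm1 and Ifi47 follow it at 0.61 and 0.58.

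The promoters of 4 members are shown because all 4 hold an ISRE core while their log2 changes were 0.85 for Igtp, 0.61 for Irgm1, 0.0095 for Irgm2 and 0.23 for Ifit1. Each runs from 250 bases before to 50 bases after the gene's start, 5′ to 3′ on the gene's strand, from RefSeq on assembly GRCm38.p6, the C57BL/6J reference, which is not the strain of these mice. Capitals mark every match to the ISRE core, which is GAAA, any 2 bases and GAAA again, or the GAS core TTCNNNGAA, on either strand. Igtp lies at chr11:58199306-58199605 on the plus strand, Irgm2 at chr11:58214727-58215026 on the plus strand, Irgm1 at chr11:48871371-48871670 on the minus strand and Ifit1 at chr19:34640639-34640938 on the plus strand.
Igtp: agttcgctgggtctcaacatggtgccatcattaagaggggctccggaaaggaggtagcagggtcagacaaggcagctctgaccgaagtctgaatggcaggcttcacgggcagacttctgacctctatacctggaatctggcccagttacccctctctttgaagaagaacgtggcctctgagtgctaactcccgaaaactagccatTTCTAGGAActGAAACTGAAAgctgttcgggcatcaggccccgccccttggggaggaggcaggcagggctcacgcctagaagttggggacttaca
Irgm2: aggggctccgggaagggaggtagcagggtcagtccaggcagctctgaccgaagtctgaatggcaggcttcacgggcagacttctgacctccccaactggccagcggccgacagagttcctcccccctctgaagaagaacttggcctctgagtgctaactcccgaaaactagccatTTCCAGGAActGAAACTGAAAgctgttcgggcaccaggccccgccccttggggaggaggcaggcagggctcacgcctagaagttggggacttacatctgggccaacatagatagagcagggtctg
Irgm1: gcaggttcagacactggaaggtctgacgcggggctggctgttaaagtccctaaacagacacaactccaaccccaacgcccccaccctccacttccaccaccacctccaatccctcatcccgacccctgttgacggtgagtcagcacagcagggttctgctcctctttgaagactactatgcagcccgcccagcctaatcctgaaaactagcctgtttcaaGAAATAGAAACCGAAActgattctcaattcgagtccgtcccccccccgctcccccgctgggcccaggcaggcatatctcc
Ifit1: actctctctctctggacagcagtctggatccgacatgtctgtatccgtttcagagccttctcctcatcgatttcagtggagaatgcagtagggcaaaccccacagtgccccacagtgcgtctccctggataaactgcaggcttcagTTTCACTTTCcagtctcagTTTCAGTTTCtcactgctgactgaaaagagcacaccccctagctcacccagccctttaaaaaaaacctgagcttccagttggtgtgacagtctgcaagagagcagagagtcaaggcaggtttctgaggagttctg

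Igtp and Irgm2 are next to each other, with 0 protein-coding genes between them in the RefSeq order, and their promoter windows matched at 244 of 265 aligned bases, or 92.1%. The longest stretch without a difference was 61 bases. Both windows hold a GAS core followed, 2 bases on, by the same ISRE core, GAAACTGAAA. The GAS cores were TTCTAGGAA in Igtp and TTCCAGGAA in Irgm2, which differ by T4C, counted from 1 at the 5′ end of the core with the Igtp base first. The ISRE core starts 34 bases before the start of Igtp and 64 bases before that of Irgm2. Irgm1 holds 2 overlapping ISRE cores, GAAATAGAAA and GAAACCGAAA, and its window matched that of Igtp at 63.7% of aligned bases. By the same alignment, which allows gaps, the window of Ifi47, which holds neither core, matched that of Igtp at 60.1%. Ifit1 holds 2 ISRE cores on the other strand, read here as TTTCACTTTC and TTTCAGTTTC.

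Among members measured here, 27 had a promoter in the RefSeq set, and 12 of these, or 44.4%, held an ISRE core, against 3.99% of the 27025 genes in the set. By role, the ISRE core was in 5 of 6 GTPases, 5 of 12 interferon-stimulated genes and 2 of 9 antigen presentation genes. The GAS core was in 7 of the 27, or 25.9%, against 9.55% of all genes. These are matches of letters, not measured binding. Both cores were present in Igtp, Irgm2 and Oas1a, whose log2 changes were 0.85, 0.0095 and 0.18, while Ifi47, whose log2 change came after only those of Igtp and Irgm1, held neither core in this window.

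**Figure D2:**
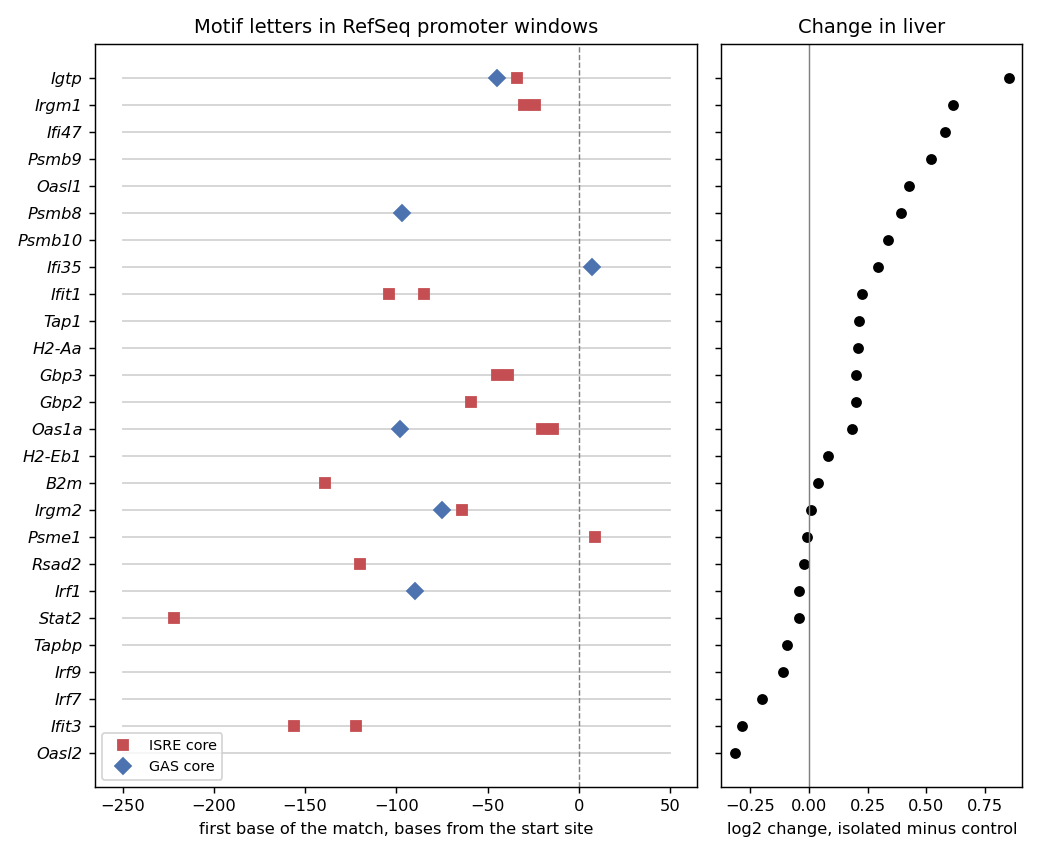
Left, first base of each ISRE core (red squares) and GAS core (blue diamonds) relative to the start site in the 300-base RefSeq window of each tested member with a promoter in the set; right, that gene's log2 change, isolated minus control. Igtp at 0.85, Oas1a at 0.18 and Irgm2 at 0.0095 carry both cores, while Ifi47 at 0.58 carries neither.

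The GTPases held the 3 largest log2 changes of the member genes, those of Igtp, Irgm1 and Ifi47. Of 7 genes, 1 rose, 0 fell and 6 did not pass, and 3 had an unadjusted limma p under 0.05. Of all tested genes 0.901% rose, 0.847% fell and 12.3% had such an unadjusted p. The median log2 change was 0.20, and it was 0.16 with arrays centred on their medians and 0.24 after quantile normalization. It was 0.49 without control replicate 1 and 0.10 without control replicate 2.

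Igtp, also known as Irgm3, encodes a GTPase of the membranes of the endoplasmic reticulum that regulates the other immunity-related GTPases. Its signal was 383, 277 and 372 in control replicates 1, 2 and 3, and 637, 508 and 721 in the isolated replicates. Every isolated array lay above every control array. Groups that did not overlap were seen for 9.62% of tested probe sets with isolated arrays higher and 5.79% lower, 15.4% in all, and among the member probe sets for 3 higher and 1 lower. For Igtp the mean went from 344 ± 58.4 to 622 ± 107 (SD, n = 3 per group), and the log2 change was 0.85 ± 0.18 (SE, 95% interval 0.48 to 1.22), a 1.80-fold rise with a limma adjusted p of 0.0146. Without control replicate 2 the log2 change was 0.70 with an adjusted p of 0.0957, without isolated replicate 3 it was 0.74 with 0.0658, and without the intensity trend in the variance model it was 0.85 with 0.199, so the call was lost in each. An exact permutation test on 3 against 3 arrays cannot give a p under 0.1.

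Irgm1 encodes a regulatory GTPase of the same family that acts in autophagy and in resistance to intracellular bacteria. It read 223, 213 and 306 in control livers against 362, 353 and 410 after isolation, so the groups did not overlap. The log2 change was 0.61 ± 0.18 (SE), a ratio of 1.53, and the limma adjusted p was 0.103. It did not pass, yet the adjusted p was 0.0388 with arrays centred on their medians, 0.0433 after quantile normalization, 0.0409 with array weights, 0.0401 with the upper 25% of probe sets tested, 0.0494 without control replicate 3 and 0.0327 with the replicate number as a block. The labels do not say that the replicate numbers pair the samples.

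Ifi47 encodes another immunity-related GTPase, of the effector class. Its signal was 180, 133 and 127 in control livers against 296, 157 and 219 after isolation. Isolated replicate 2 lay within the control range, so the groups overlapped. The log2 change was 0.58 ± 0.22 (SE) and its limma adjusted p 0.269, and it ran from 0.35 without isolated replicate 1 to 0.81 without isolated replicate 2.

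Irgm2 encodes another regulatory GTPase of the family. It read 319, 265 and 311 in control livers against 403, 187 and 356 after isolation. Isolated replicates 1 and 3 lay above all controls and isolated replicate 2 below all of them. The log2 change was 0.0095 ± 0.22 (SE), with a 95% interval from -0.46 to 0.48 and a limma adjusted p of 0.994. It was 0.35 without isolated replicate 2 and -0.20 without isolated replicate 1, and it was below 0 after median centring (-0.035) and after quantile normalization (-0.050).

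The log2 ratio of Igtp to Irgm2 within each array was 0.26, 0.06 and 0.26 in control livers against 0.66, 1.43 and 1.01 after isolation. Every isolated array had a higher ratio than every control array, a difference of 0.84 with a two-sided exact permutation p of 0.1, the smallest that 3 against 3 arrays allow. This was 1 of 4 ratios, chosen after the values were seen, and the Benjamini-Hochberg adjusted p over them was 0.2. No adjusted p over them could be under 0.1. Each difference is the log2 change of Igtp less that of the second gene, so it is not separate evidence on Igtp. For Igtp to Iigp1 the ratio differed by 1.13, also without overlap (p = 0.1 by the exact permutation test). For Igtp to Irgm1 and to Ifi47 it differed by 0.24 and 0.27, with an exact permutation p of 0.2 for each.

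Iigp1 encodes an effector GTPase that coats and disrupts the vacuoles of parasites. It read 2981, 2981 and 3926 in control livers against 3117, 2222 and 2839 after isolation. Isolated replicates 2 and 3 lay below every control. The log2 change was -0.28 ± 0.15 (SE) and its limma adjusted p 0.524, and the second probe set of the gene gave -0.33. After quantile normalization, though not after median centring, all isolated arrays of Iigp1 lay below the controls.

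Gbp2 and Gbp3 encode guanylate-binding proteins, larger GTPases that act at pathogen membranes. Both were dim. Gbp2 read 28.4, 19.8 and 21.2 in control livers against 21.99, 29.6 and 28.8 after isolation, with overlap. Its second probe set, whose name ends in _x_at and marks probes that may match other transcripts, had a log2 change of -0.62 against 0.20 for the first, and neither was called. Gbp3 read 74.8, 29.7 and 53.3 in control livers against 53.4, 56.7 and 60.8 after isolation, all within the control range.

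**Figure D3:**
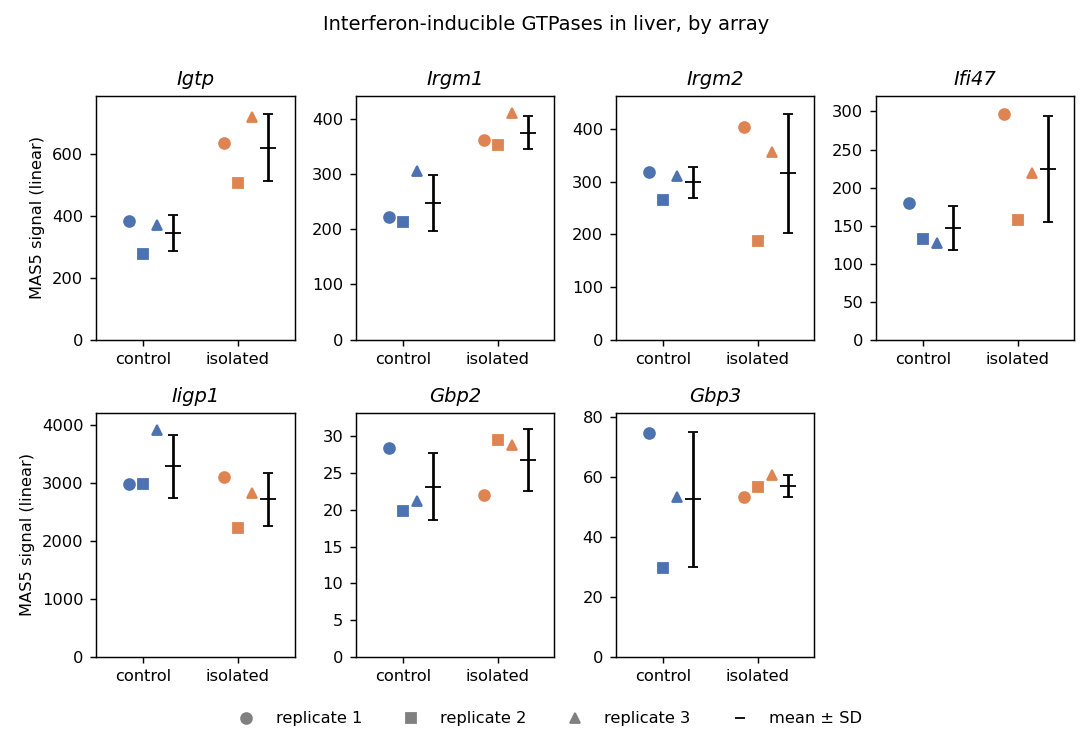
MAS5 signal on each array for the 7 GTPases, from 0 on a linear axis that differs between panels; symbols mark the replicate, and the black bar is the group mean ± SD (n = 3). The isolated arrays lie above the controls in the panels of Igtp and Irgm1, while isolated replicate 2 of Irgm2, at 187, lies below all controls.

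Among the 13 tested interferon-stimulated genes 0 rose and 0 fell by limma, 0 had an unadjusted p under 0.05 against 12.3% of all tested genes, and 0 separated the groups, against 10.8% of all tested genes with isolated arrays higher and 5.17% lower. The median log2 change was -0.02, with 6 genes above 0 and 7 below, and the smallest adjusted p was 0.477, for Ifi35. It was 0.26 without isolated replicate 1 and 0.10 without isolated replicate 2.

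Ifi35, an interferon-induced leucine zipper protein, read 1087, 1028 and 1223 in control livers against 1336, 1194 and 1575 after isolation. Isolated replicate 2 lay below control replicate 3, so the groups just overlapped. The log2 change was 0.29 ± 0.15 (SE), and the 2 other probe sets of Ifi35 gave 0.19 and 0.27, the last from a probe set ending in _x_at. After median centring and after quantile normalization the groups of Ifi35 no longer overlapped.

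Ifit1, an antiviral protein that binds foreign RNA, read 47.2, 39.2 and 41.2 in control livers against 38.2, 46.4 and 70.2 after isolation. Its value on isolated replicate 3 was the highest of the 6 and that on isolated replicate 1 the lowest. Ifit3, from the same family, read 63.3, 86.2 and 58.2 in control livers against 40.6, 55.9 and 75.6 after isolation. Their log2 changes were 0.23 and -0.29 with limma adjusted p of 0.842 and 0.769. Ifit2 lay below the filter and read 2.54 to 29.7 in controls and 11.8 to 35.6 in isolated mice.

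Among the oligoadenylate synthetase family, Oas1a, which makes the second messenger of an RNA-degrading pathway, read 79.2, 85.6 and 63.8 in control livers against 77.0, 65.1 and 127 after isolation. Oasl1 read 30.9, 41.6 and 26.9 against 45.1, 39.4 and 49.3, with a log2 change of 0.42 ± 0.27 (SE) that was the largest of the interferon-stimulated genes tested. Oasl2, its neighbour in the RefSeq order, read 26.8, 41.7 and 32.5 against 17.6, 29.1 and 35.1, with a log2 change of -0.31 ± 0.33 (SE). The neighbours had opposite signs, and neither passed the test.

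Rsad2, which encodes the antiviral enzyme viperin, had 3 tested probe sets with log2 changes of -0.02, -0.68 and -0.21, none called. The one with the highest mean read 60.2, 63.6 and 83.7 in control livers against 39.2, 67.0 and 115 after isolation, a wider spread among isolated arrays. Ifi27l2a, a small interferon-induced protein, read 74.3, 82.8 and 57.2 in control livers against 47.1, 90.8 and 132 after isolation. Usp18, which removes ISG15 from proteins and damps receptor signalling, read 43.6, 41.9 and 76.2 against 60.4, 58.6 and 88.9.

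In each of Ifit1, Oas1a, Rsad2, Ifi27l2a and Usp18 isolated replicate 3 gave the highest value of the 6 arrays. That array gave the highest value for 17 of the 32 member genes and the lowest for 0, and for 38.6% of all tested genes it was the highest. Its trimmed mean signal was 111 against 92.5 to 108 on the other 5 arrays, while its median signal, 21.9, lay within their range of 18.4 to 22.1. After arrays were centred on their medians it was the highest for 10 of the 32 member genes, against 15.3% of all tested genes.

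None of the transcription factors was called. Irf1, an activator downstream of interferon gamma, read 223, 188 and 218 in control livers against 186, 184 and 246 after isolation. Irf7, which amplifies type I interferon production, read 92.8, 105 and 84.4 against 87.4, 56.0 and 110. Irf9 and Stat2, parts of the complex that binds the ISRE, had log2 changes of -0.11 ± 0.22 and -0.04 ± 0.20 (SE), and a second probe set of Stat2 gave -0.0057. The 95% interval for Stat2 ran from -0.46 to 0.37.

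**Figure D4:**
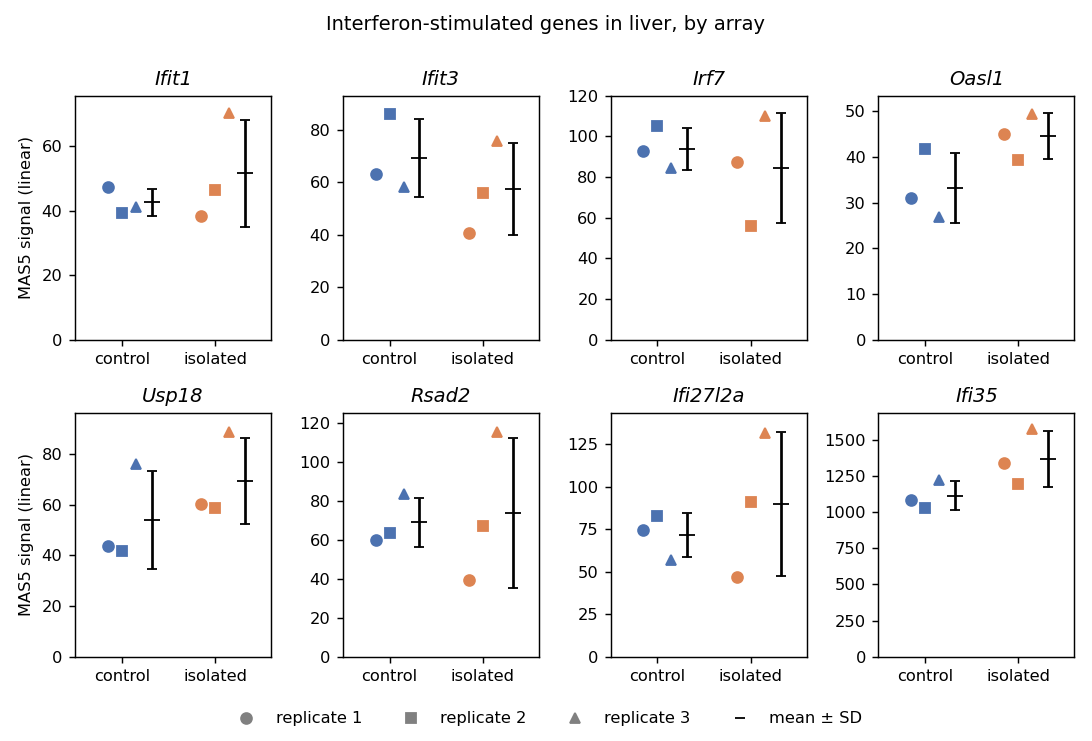
MAS5 signal on each array for 8 of the interferon-stimulated genes, from 0 on a linear axis that differs between panels; symbols mark the replicate, and the black bar is the group mean ± SD (n = 3). The groups overlap in every panel, and the triangle of isolated replicate 3 is the highest point for 7 of the 8 genes, Ifit3 being the exception.

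Genes of antigen processing and presentation gave 0 calls in either direction among 12 tested genes, with 1 unadjusted limma p under 0.05, against 1.75% and 12.3% of all tested genes, so both counts are near the background. The median log2 change was 0.14, with 9 genes above 0, and it was 0.10 after median centring and 0.12 after quantile normalization. Without isolated replicate 3 it was 0.01, and with the mean over all tested probe sets of each gene it was 0.014. The 3 classes within this group are given in turn.

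The immunoproteasome subunits Psmb8, Psmb9 and Psmb10 replace the standard catalytic subunits of the proteasome and favour peptides that bind MHC class I. All 3 had log2 changes above 0, and none was called. Psmb9 read 97.96, 74.1 and 86.4 in control livers against 121, 92.4 and 167 after isolation, with a log2 change of 0.52 ± 0.22 (SE), an unadjusted limma p of 0.0304 and an adjusted p of 0.359. Isolated replicate 2 lay within the control range of Psmb9.

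Psmb10 read 273, 278 and 256 in control livers against 365, 279 and 386 after isolation. The lowest isolated value lay just above the highest control value, and the groups overlapped after quantile normalization. Its log2 change was 0.34 ± 0.17 (SE) and its limma adjusted p 0.502. Psmb8 read 175, 143 and 183 against 263, 176 and 226, with a log2 change of 0.39 ± 0.19 (SE) and an adjusted p of 0.458. A second, dim probe set of Psmb8 ending in _x_at gave -0.46. Among the 32 member genes 3 had every isolated array above every control (Igtp, Irgm1 and Psmb10) and 0 the reverse, against 10.8% and 5.17% of all tested genes, 16% in all, so the share is near the background.

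Psme1, a subunit of the activator that opens the proteasome and is also induced by interferon gamma, had a log2 change near 0. It read 850, 920 and 932 in control livers against 951, 744 and 1012 after isolation. The log2 change was -0.0087 ± 0.15 (SE), with a 95% interval from -0.33 to 0.31. The standard catalytic subunits Psmb5, Psmb6 and Psmb7 had log2 changes of -0.05, 0.12 and 0.07.

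Tap1 and Tap2 form the transporter that carries peptides into the endoplasmic reticulum, and Psmb9, Tap1, Psmb8 and Tap2 are adjacent, with 0 protein-coding genes between neighbours. Tap1 read 43.2, 38.3 and 42.2 in control livers against 36.5, 47.4 and 63.9 after isolation. Tap2 read 52.8, 48.5 and 59.4 against 69.1, 41.5 and 81.1. Their log2 changes were 0.21 ± 0.26 and 0.20 ± 0.25 (SE), with overlapping groups.

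Tapbp, which holds MHC class I beside that transporter, read 547, 576 and 591 in control livers against 601, 458 and 558 after isolation, with a log2 change of -0.09 ± 0.16 (SE). B2m, the light chain of MHC class I, read 8196, 7729 and 9346 against 8729, 7942 and 9252, which nearly coincide. Its log2 change was 0.04 ± 0.11 (SE), with a 95% interval from -0.20 to 0.28, and it was -0.0062 after median centring. The second probe set of B2m gave 0.03.

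MHC class II genes had log2 changes close to 0 by their brightest probe set, apart from H2-Aa. Cd74, the invariant chain that guides class II molecules, read 131, 141 and 154 in control livers against 130, 142 and 153 after isolation. Its log2 change was -0.0042 ± 0.18 (SE), with a 95% interval from -0.39 to 0.38. H2-Eb1, a class II beta chain, read 85.5, 102 and 129 against 95.8, 108 and 129. The groups of Cd74 and of H2-Eb1 spanned almost the same range.

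H2-Aa and H2-Ab1, the chains of the other class II molecule, were each covered by 3 tested probe sets that did not move alike. For H2-Aa the log2 changes were 0.21, -0.11 and -0.69, the first and last from probe sets ending in _x_at. The last read 37.8, 49.9 and 47.3 in control livers against 24.5, 23.5 and 33.7 after isolation, without overlap but with a limma adjusted p of 0.314. For H2-Ab1 they were 0.08, -0.05 and -0.38, the last from a probe set ending in _x_at. Ciita, the master activator of class II genes, had 3 probe sets below the filter, the brightest of which read 17.1 to 20.3 in controls and 9.97 to 19.3 in isolated mice. Of 10 members with several tested probe sets, 5 had log2 changes of both signs: Gbp2, H2-Aa, H2-Ab1, Psmb8 and Tapbp.

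**Figure D5:**
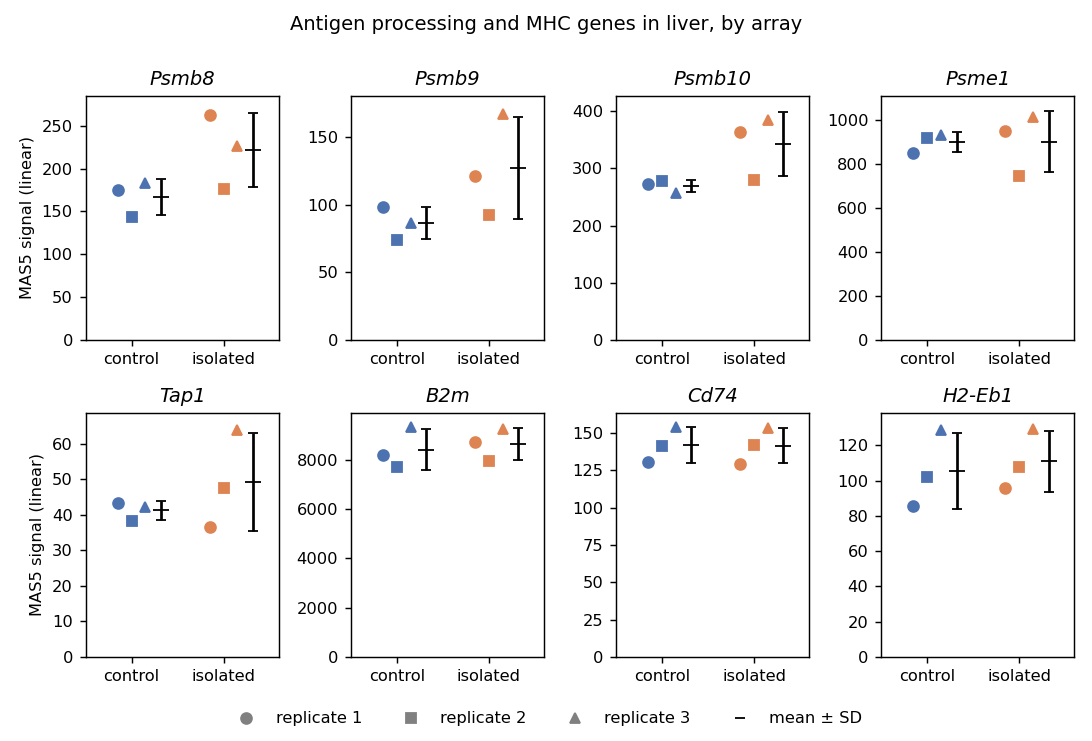
MAS5 signal on each array for 8 antigen processing and MHC genes, from 0 on a linear axis that differs between panels; symbols mark the replicate, and the black bar is the group mean ± SD (n = 3). Psmb8, Psmb9 and Psmb10 read higher on isolated replicates 1 and 3 than on any control, while the groups of B2m and Cd74 overlap almost fully.

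A list of 97 further symbols of the interferon and antigen presentation pathways was read from the same fit, of which 84 were matched and 66 tested. Of the 66 genes, each read by its tested probe set with the highest mean, 1 rose and 0 fell. The median log2 change was 0.07 against 0.05 over all tested genes. An unadjusted limma p under 0.05 was seen for 9 of the 66, against 12.3% of all tested genes. The call was Cxcl11, a chemokine that attracts activated T cells, which read 30.1, 3.76 and 30.7 in control livers against 79.3, 70.9 and 82.3 after isolation. Control replicate 2 was far below the other controls, and a second probe set of Cxcl11 lay below the filter. Its relatives Cxcl9 and Cxcl10 had log2 changes of 0.56 ± 0.27 and 0.40 ± 0.33 (SE), with limma adjusted p of 0.443 and 0.736.

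Of the interferon genes, Ifna1 and Ifna2 passed the filter, with log2 changes of -0.07 ± 0.32 and -0.25 ± 0.25 (SE), and neither was called. Ifng lay below the filter at 0.528 to 1.66 in controls and 0.566 to 2.09 in isolated mice, and Ifnb1 at 2.64 to 21.0 and 2.47 to 10.8. The 4 receptor genes Ifnar1, Ifnar2, Ifngr1 and Ifngr2 had log2 changes from -0.17 to 0.10. Of the others with an unadjusted limma p under 0.05, Dhx58, Eif2ak2, Rfx5, H2-M3 and Psma1 had log2 changes of 0.65, 0.69, 0.60, 0.60 and 0.30, and Irf2, Myd88 and Oas2 of -0.65, -0.61 and -0.79. The smallest adjusted p among these 8 was 0.113, for Myd88, the adaptor of Toll-like receptors, which read 226, 288 and 286 in control livers against 189, 151 and 180 after isolation. Some dimmer probe sets of related genes also had an unadjusted limma p under 0.05. Their log2 changes were 1.87 for Samhd1, 1.20 for Ptpn2, 0.60 for H2-D1, -0.77 for Stat3, -0.70 for Tyk2 and -0.63 for Socs3. That of Samhd1 ended in _x_at and had a limma adjusted p of 0.075, while its brightest probe set gave 0.04.

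The liver label was borne out by 7 of 7 hepatocyte markers passing the filter, with summed signals of 73387 to 76729 in controls and 66274 to 75344 in isolated mice. The 9 Kupffer cell and macrophage markers summed to 2277 to 2670 in controls and 1887 to 2692 in isolated mice, with 0 of 8 tested genes called. The Kupffer marker Clec4f read 404, 407 and 463 in control livers against 388, 287 and 450 after isolation, and was lowest on isolated replicate 2. That array was also the lowest for 8 of the 32 member genes (Irgm2, Iigp1, Irf1, Irf7, Stat2, Psme1, Tap2 and Tapbp), against 30.4% of all tested genes. Adgre1, another macrophage marker, read 85.3 to 128 after isolation and 98.7 to 129 in controls. Clec4n, from the same list, read 46.3 to 75.8 after isolation and 29.3 to 37.6 in controls, without overlap. Its log2 change was 0.69 with a limma adjusted p of 0.273, and a second probe set gave 0.25. The median log2 change of the macrophage list was 0.0002. Of the dendritic, B and T or NK cell lists 1 gene each passed the filter, and Itgax, Siglech, Cd79a and Cd3e read at most 19.6, 25.8, 19.3 and 7.48 on any array. T and NK cell markers summed to 115 to 118 in controls and 83.5 to 106 in isolated mice, with only Prf1 of the 10 genes above the filter. The log2 change of Prf1 was -0.03 by its brightest probe set. The genes below the filter went both ways, from -2.01 for Gzmb to 1.06 for Cd3g. Adipocyte markers summed to 140 to 234 in controls and 223 to 506 in isolated mice, with only Fabp4 of the 5 matched genes above the filter. By its brightest probe set Fabp4 read 117, 202 and 157 in control livers against 203, 300 and 404 after isolation, without overlap. The log2 change of Fabp4 was 0.90 with a limma adjusted p of 0.0578, and its other tested probe sets gave 0.70 and -0.02. Below the filter, Adipoq read 59.5 and 54.8 on isolated replicates 2 and 3 against 3.78 on isolated replicate 1 and 4.38 to 15.6 in controls. Of the others below it, Retn had a log2 change of 1.73, and Lep and Cidea of -0.06 and -0.31. On isolated replicate 1, Igtp, Irgm1, Ifi47, Psmb8, Psmb9 and Psmb10 each lay above every control. Fabp4 on that array lay just above every control by its brightest probe set and below every control, at 80.0, by its second. The share of all tested genes above every control on that array was not counted. No marker in any list was called. The part of these marker levels in the changes of the members was not tested.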

How the data were processed

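Mouse liver RNA was measured on 6 Affymetrix arrays, 3 per group, with probe sets named in the platform annotation. The deposited intensity values came from MAS5, per the submitters' processing notes; MAS5 combines perfect-match and mismatch probes into 1 linear signal. What target MAS5 scaled each array to, and which probe sets it called present, is not stated in any source used here. Control probe sets (64) were set apart, leaving 45037. A pseudocount of 2 was added before log2, and the upper 50% of probe sets by mean log2 value, 22519 in all, were tested; the mean log2 value at that floor was 4.32. Isolated and control arrays were compared with limma 3.58.1 in R 4.3.3, with a linear model and eBayes with an intensity trend, two-sided, and p-values were adjusted by Benjamini-Hochberg across every tested probe set. The procedure was tested on simulated data. The number of arrays limits the precision.

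The members, lists, tests and alternatives were chosen with earlier results of these data known. Every member was named; array values in full were planned for called members, for those without overlap and a log2 change of at least 0.4 in size, and for the member with the highest mean per role group, and others were added after the values were seen. Related genes were named when called or with an unadjusted p under 0.05 by their tested probe set with the highest mean. Their dimmer probe sets with such a p, and the receptors, ligands, Cxcl9, Cxcl10 and standard proteasome subunits, were added afterwards. Motifs were searched in RefSeq promoters, which were aligned with Biopython. Figures were drawn with matplotlib 3.10.9.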

Additional observations from a re-analysis of the deposited data

How the results depend on the processing

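Over the 18 alternatives, 1 member probe set was called higher in the reported fit and 0 were called lower in any. The number called higher was 2 with the upper 25% of probe sets tested, with median centring, with quantile normalization, with array weights and with the replicate block, the second call being Irgm1 in each. It was 2 without isolated replicates 2 and 3 together, where the single isolated array left is taken to vary as controls do, the calls there being Igtp and Ifi47. It was 0 without the intensity trend, and it ran from 0 to 2 over the fits with 1 array left out, being 0 without control replicate 2 and without isolated replicate 3. Calls over all probe sets numbered 174 higher and 193 lower in the reported fit, 15 and 16 without the intensity trend, 81 and 101 without a filter, 265 and 248 with the replicate block, 303 and 285 at an adjusted p under 0.1, 115 and 148 without control replicate 2, 144 and 82 without control replicate 3, 97 and 243 with isolated replicate 3 left out, and 88 and 202 with isolated replicates 2 and 3 left out. The labels do not say that replicate numbers pair the samples. Deviations of same-numbered arrays from their group means correlated at 0.0078, 0.044 and 0.0049, and not every sample correlated best with its own number. With 3 arrays per group, these correlations cannot exclude a pairing.

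The median log2 change of the interferon-stimulated genes ran from -0.11 to 0.26 with 1 array left out. That of the GTPases ran from 0.10 to 0.49, and it was 0.58 with the upper 25% of probe sets and 0.43 without isolated replicates 2 and 3. Of the 32 member genes, 13 kept the sign of their log2 change under every alternative, Igtp, Irgm1, Ifi47 and Psmb8 to Psmb10 among them. The alternatives that changed only the variance model, the call threshold, the filter or the replicate block leave the log2 change as it was, so they could not change a sign. Each alternative read the same probe set per gene, and the second probe set of Psmb8 gave -0.46. The other 19 genes changed sign in at least 1 alternative, and none of them was called (lowest limma adjusted p in such a fit 0.764). With 1 array left out, their log2 changes ran from -0.021 to 0.12 for B2m, -0.10 to 0.12 for Psme1, -0.18 to 0.020 for Tapbp, -0.20 to 0.35 for Irgm2, -0.18 to 0.033 for Irf1, -0.27 to 0.12 for Irf9, -0.062 to 0.057 for Cd74, -0.14 to 0.10 for Stat2, -0.087 to 0.43 for H2-Aa, -0.057 to 0.23 for H2-Eb1, -0.41 to 0.064 for Irf7, -0.028 to 0.20 for H2-Ab1, -0.093 to 0.38 for Oas1a, -0.11 to 0.62 for Ifi27l2a, -0.40 to 0.35 for Rsad2, -0.15 to 0.49 for Gbp3 and -0.010 to 0.41 for Ifit1. Without isolated replicates 2 and 3 the sign also changed for Psme1 (0.079), Tapbp (0.072), Stat2 (0.10), H2-Aa (-0.023), H2-Eb1 (-0.12), Ifi27l2a (-0.56), Ifit1 (-0.14), Tap1 (-0.17) and Gbp2 (-0.054). It changed with array weights for Psme1 (0.029), Stat2 (0.050) and Ifi27l2a (-0.11), with median centring for B2m (-0.0062) and Irgm2 (-0.035), and with quantile normalization for Irgm2 (-0.050). The cause was not tested. Ifit2 and Ciita were too dim to be tested.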
